A study of Mus musculus with 12 samples.

Results

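The enzymes that use and make arginine were followed in mouse colon injured with dextran sulfate sodium (DSS) and then left on water or given L-arginine (L-Arg). The 10 listed genes are the NO synthases Nos1, Nos2 and Nos3, the arginases Arg1 and Arg2, the citrulline-handling enzymes Otc, Ass1 and Asl, and the creatine-synthesis enzymes Gatm and Gamt, chosen by symbol and function. A gene counted as measured where the array held a probe set that the platform table gives to that gene alone, and 9 of the 10 did, of 19938 genes measured in all. Ass1 has 2 probe sets, both of which also carry Gm5424, so no value is given for it.

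Arginine stands at a branch point. NO synthases turn it into nitric oxide and citrulline, arginases into urea and ornithine, and Gatm (glycine amidinotransferase) starts creatine synthesis from it, which Gamt (guanidinoacetate methyltransferase) completes. In the urea cycle of the liver, Otc joins ornithine and carbamoyl phosphate to citrulline, and Ass1 and Asl convert citrulline back into arginine. Otc also makes citrulline in gut epithelium. In inflamed gut, Nos2 (iNOS) is known as the inducible, high-output source of NO, and in mouse macrophages Nos2 and Arg1 are commonly set against each other as markers of different activation states.

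All 12 mice were male wild-type C57BL/6, 7 weeks old at the start and 8 weeks and 3 days by the labels of the samples. DSS+L-Arg mice drank 4% DSS for 6 days and 1% L-Arg for the next 4 days. DSS mice drank 4% DSS for 6 days and plain water over the next 4 days. Control+L-Arg mice drank water for 6 days and 1% L-Arg for the next 4 days, and control mice drank water alone. Colon was taken on day 10, with 3 mice in each group and 1 Affymetrix whole-transcript array per mouse. By the study's general methods a proximal and a distal piece of each colon were combined, while its legend for the arrays names a piece of colon. Which of these holds for the arrays is not settled. Each value is a mean over the cell types of the tissue taken, and fewer cells of a type cannot be told apart from less RNA per cell. Values are RMA signals on the log2 scale, which can be compared between arrays for a gene but not between genes.

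The tissue label was set against markers, for which these signals give differences between arrays but cannot say that a gene was absent. The median of 13 colonocyte genes was within 0.09 of the control mean in every array, and that of 6 absorptive cell genes of the small intestine between -0.20 and 0.19. Single genes moved more than these medians. Among those 6 the apolipoprotein gene Apoa4 was high in DSS 2 (9.30, against 5.79 to 7.26 in the other 11 arrays). Sis, another of the 6, ran from 4.72 in DSS 3 to 10.03 in control+L-Arg 2. The colonocyte gene Aqp8 was 8.46 in DSS 1, against 10.88 or more in the other arrays. Of the 13 colonocyte genes 1 was called lower with DSS by limma (2.23% of all genes). DSS 3 stood apart from the other DSS arrays, with the highest neutrophil marker median (3.91 above the control mean over 14 markers, against 1.86 in DSS 1 and 1.63 in DSS 2) and the lowest goblet cell median (-0.94 over 6 markers). Male accessory gland genes were high in control 2 (3.22 over 8 genes). The 6 posterior Hox genes, which mark the distal end of the colon, were above the control mean in 5 arrays (DSS+L-Arg 1, control+L-Arg 1, control+L-Arg 3, control 1 and control 3), and whether the pieces came from different positions was not tested.

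**Figure D1:**
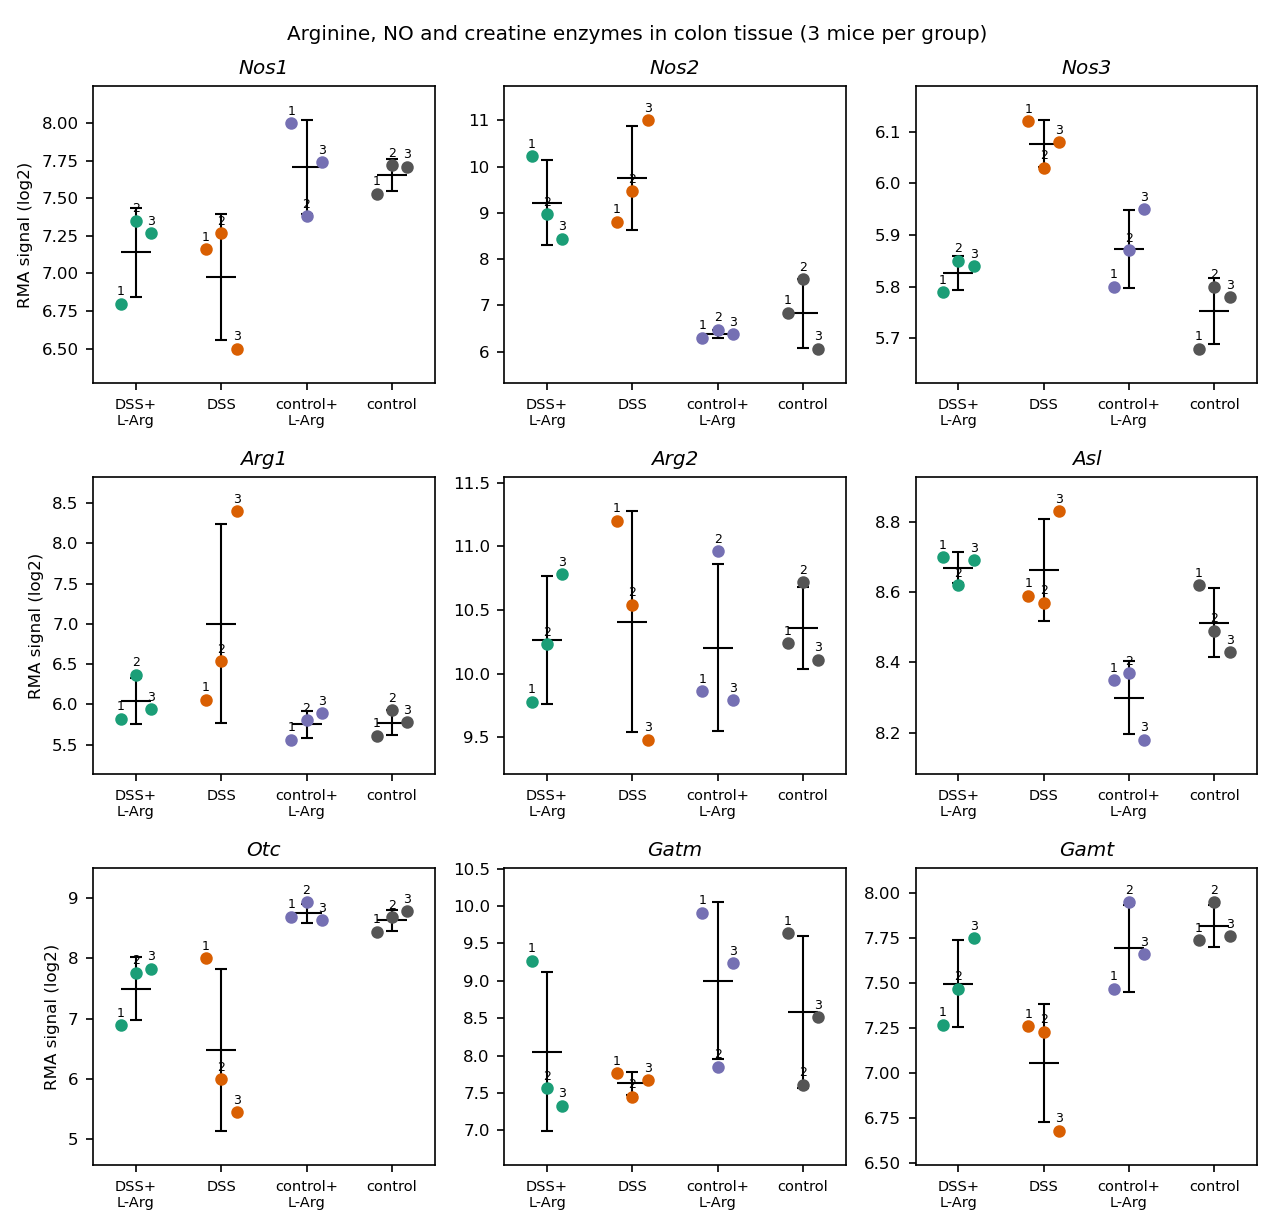
RMA signal on the log2 scale (y axis) of the 9 measured genes in each group (x axis). Each point is 1 mouse with its number, the long line is the group mean and the bars are 1 SD (n = 3). The y axes differ between panels and do not start at 0. Every Nos2 point of the DSS+L-Arg and DSS groups lies at 8.44 or above and every point of the control+L-Arg and control groups at 7.57 or below, and every Otc point of the groups given DSS lies at 8.00 or below, against 8.44 or above in the groups without it.

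Nos2 was the gene with the largest rise with DSS among the 9. Its log2 signal was 8.81, 9.46 and 11.00 in DSS mice 1, 2 and 3, against 6.84, 7.57 and 6.06 in control mice. The groups did not overlap, and DSS 3 had the highest value of all 12 arrays. The mean was 9.76 ± 1.13 with DSS and 6.83 ± 0.76 in control (SD, n = 3 each), a log2 fold change of 2.93 (SE 0.57, 7.63-fold, adjusted p = 0.0173 by limma over all genes). Without DSS 3 the log2 fold change was 2.31 (adjusted p = 0.0323), and without control 2 it was 3.30 (adjusted p = 0.0239). The call was lost without control 1 (2.94, adjusted p = 0.0629) or control 3 (2.55, adjusted p = 0.086).

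In mice given L-Arg after DSS, Nos2 was still high. The values were 10.23, 8.97 and 8.44 in DSS+L-Arg mice 1, 2 and 3, so the lowest of them was below every DSS mouse and the highest above DSS 1 and DSS 2. The difference of DSS+L-Arg from DSS was -0.55 (SE 0.57, 95% interval -1.79 to 0.70, adjusted p = 0.699 by limma). Compared with control the DSS+L-Arg mean was higher by 2.39 (SE 0.57, 5.23-fold), with no overlap, which did not pass after adjustment (adjusted p = 0.152, unadjusted p = 0.00135 by limma) but met the study's thresholds of an unadjusted p under 0.01 and a fold change over 2. These thresholds are applied here and below to limma p-values, while the study took its p-values from Significance Analysis of Microarrays (SAM). Compared with control+L-Arg, where Nos2 was 6.30, 6.47 and 6.38, the DSS+L-Arg mean was higher by 2.83 (SE 0.57, adjusted p = 0.0666). This last comparison passed without DSS 1 (adjusted p = 0.0456) or without DSS 3 (0.0218), in a limma fit of the compared groups alone (0.0282) and with array weights (0.0409). DSS+L-Arg versus control and DSS versus control use the same control arrays.

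Neutrophil markers were high in the DSS group and near control in the DSS+L-Arg group. Of 14 measured neutrophil markers 9 were called higher with DSS, against 1.8% of all genes, and the list's median per array was 1.63 to 3.91 above the control mean in DSS mice, against -0.19 to 0.43 in control mice. In DSS+L-Arg mice it was 0.14 to 0.56, within or just above the control range, while Nos2 was 1.61 to 3.40 above its control mean in the same mice. Calprotectin (S100a8) had 7.82, 6.52 and 6.98 in DSS+L-Arg mice, 10.01, 9.05 and 11.57 in DSS mice and 5.95, 7.47 and 5.48 in control mice. The granule enzyme genes Mpo and Elane were not called in DSS versus control (-0.02 and 0.14, adjusted p = 0.968 and 0.53 by limma). The part of neutrophils in the Nos2 values was not tested.

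Nos3, the endothelial NO synthase, rose with DSS by a small amount. It measured 6.12, 6.03 and 6.08 in DSS mice, against 5.68, 5.80 and 5.78 in control mice, with no overlap. The log2 fold change was 0.32 (SE 0.08, 1.25-fold, adjusted p = 0.0424 by limma). In DSS+L-Arg mice Nos3 was 5.79, 5.85 and 5.84, below every DSS mouse, and in control+L-Arg mice it was 5.80, 5.87 and 5.95. The difference of DSS+L-Arg from DSS was -0.25 (SE 0.08), which did not pass (adjusted p = 0.21, unadjusted p = 0.0081 by limma). The probe set is dim: only 4 arrays, the 3 DSS arrays and control+L-Arg 3, were above the 30th percentile of all values (5.89). Leaving out any single array of the 12 took the Nos3 call in DSS versus control above the threshold (adjusted p = 0.0504 to 0.154, log2 fold change 0.28 to 0.35).

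Of 10 endothelial cell genes, all had a higher mean with DSS than in control and none was called (6 at an unadjusted p under 0.05 by limma). Over all 19938 genes, 9354 had a higher mean with DSS and 19.6% such a p. The list's median lay 0.10 to 0.65 above the control mean in DSS mice, against -0.28 to -0.03 in DSS+L-Arg mice, -0.08 to 0.50 in control+L-Arg mice and -0.11 to 0.10 in control mice. The part of endothelial cells in the Nos3 values was not tested.

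Nos1, the neuronal NO synthase, went the other way in its means, without passing the test. Its values were 7.16, 7.27 and 6.50 in DSS mice, against 7.53, 7.72 and 7.71 in control mice, and 6.80, 7.35 and 7.27 in DSS+L-Arg mice, against 8.00, 7.38 and 7.74 in control+L-Arg mice. All 6 mice given DSS were below all 6 without it, by 0.03 at the closest. The log2 fold change was -0.68 for DSS versus control (SE 0.22, adjusted p = 0.107 by limma), and the difference of DSS+L-Arg from control+L-Arg was -0.57 (SE 0.22, adjusted p = 0.248). Between DSS+L-Arg and DSS it was 0.16 (SE 0.22, 95% interval -0.32 to 0.64).

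Nos1 is made by enteric neurons, which lie in and beside the muscle layer. The median of 9 enteric neuron markers was -0.52 to -0.11 relative to the control mean in DSS+L-Arg mice and also in DSS mice, against -0.04 to 0.35 in control+L-Arg mice and -0.26 to 0.20 in control mice. That of 9 smooth muscle markers was -1.08 to -0.20 in DSS+L-Arg mice, -1.50 to -0.63 in DSS mice, -0.69 to 1.08 in control+L-Arg mice and -0.41 to 0.73 in control mice. With the smooth muscle median as a covariate, added after seeing the data, the Nos1 difference between DSS and control was -0.42 (SE 0.23, adjusted p = 0.426 by limma). The part of neurons in it was not tested.

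Of the arginases, Arg1 was high in 1 mouse above all. The cytosolic arginase Arg1 measured 6.06, 6.54 and 8.40 in DSS mice, against 5.61, 5.93 and 5.78 in control mice. The groups did not overlap, but only DSS 3 was above 7. The log2 fold change was 1.23 (SE 0.45, 95% interval 0.25 to 2.21), which did not pass (adjusted p = 0.151 by limma). Without DSS 3 it was 0.53 (adjusted p = 0.154), and without DSS 1, the lowest of the group, Arg1 was called (1.70, adjusted p = 0.0338). In DSS+L-Arg mice Arg1 was 5.82, 6.37 and 5.94, which overlapped both DSS and control, and the difference from DSS was -0.96 (SE 0.45, adjusted p = 0.381 by limma), or -0.26 without DSS 3 (adjusted p = 0.575).

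Over 13 markers of monocytes and macrophages the median was 0.86 to 1.45 in DSS mice relative to the control mean, highest in DSS 3, against 0.12 to 0.30 in DSS+L-Arg mice, -0.11 to 0.72 in control+L-Arg mice and -0.09 to 0.06 in control mice. The part of these cells in the Arg1 values was not tested. Arg2, the mitochondrial arginase, was not called. It was 11.20, 10.54 and 9.48 in DSS mice, against 10.24, 10.72 and 10.11 in control mice, and the DSS values lay on both sides of all the control values. Its difference was 0.05 (SE 0.43, 95% interval -0.89 to 1.00, adjusted p = 0.966 by limma).

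**Figure D2:**
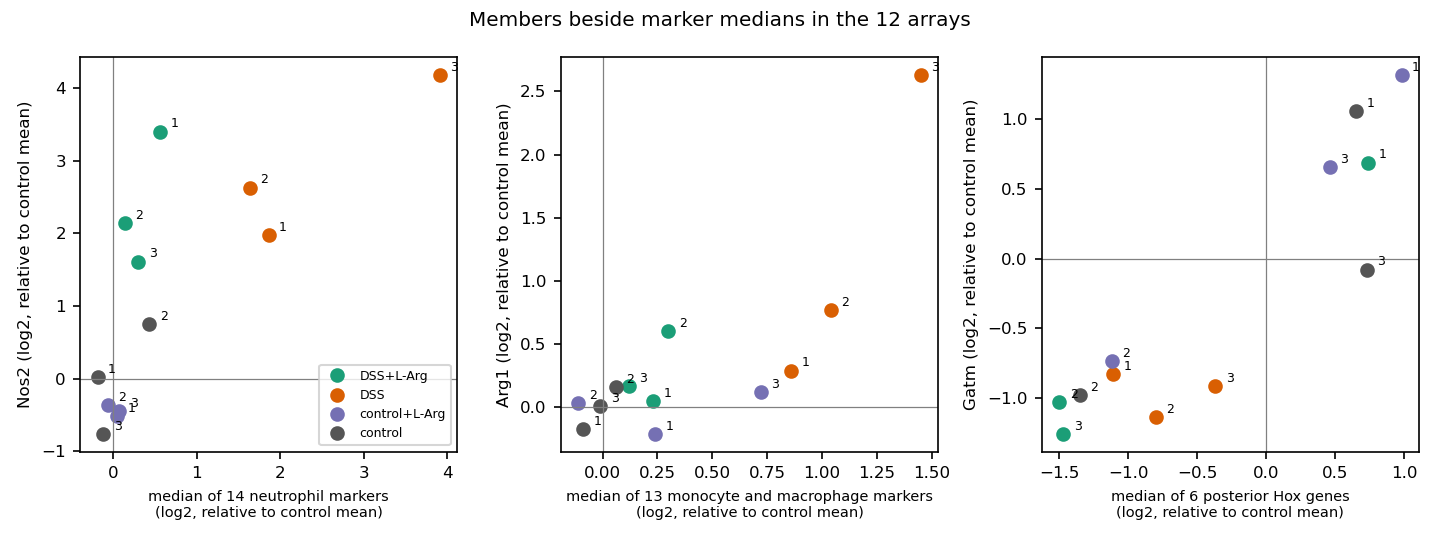
Log2 RMA signal of Nos2, Arg1 and Gatm relative to the control mean (y axes) against the median of marker genes relative to the control mean (x axes, log2): 14 neutrophil markers, 13 monocyte and macrophage markers and 6 posterior Hox genes. Each point is 1 mouse, coloured by group and numbered within it. DSS 3 lies at the upper right in the panels for Nos2 and Arg1, the 3 DSS+L-Arg mice have Nos2 at 1.61 to 3.40 with neutrophil medians of at most 0.56, and in the Gatm panel 5 mice with Hox medians above 0 lie apart from the other 7.

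Otc fell with DSS more than any of the other 8 measured genes. It was 8.00, 6.00 and 5.45 in DSS mice, against 8.44, 8.68 and 8.78 in control mice, and DSS 1 was much nearer to control than the other DSS mice. The log2 fold change was -2.15 (SE 0.50, fold 0.225, adjusted p = 0.0387 by limma). In DSS+L-Arg mice it was 6.89, 7.76 and 7.83, against 8.69, 8.93 and 8.63 in control+L-Arg mice. The DSS+L-Arg mean of 7.50 ± 0.52 lay between 6.48 ± 1.34 in DSS and 8.63 ± 0.17 in control (SD, n = 3 each), and no test of DSS+L-Arg passed: the difference was 1.02 from DSS (SE 0.50, adjusted p = 0.41 by limma), -1.13 from control (SE 0.50, adjusted p = 0.387) and -1.25 from control+L-Arg (SE 0.50, adjusted p = 0.268). Without DSS 1, whose value was above all 3 of DSS+L-Arg, Otc was called in DSS+L-Arg versus DSS (1.77, adjusted p = 0.0133).

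The Otc call in DSS versus control rested on little margin. It held without DSS 1 (-2.91, adjusted p = 0.000375 by limma) and without DSS+L-Arg 1, and was lost when any other single array was left out (adjusted p = 0.0505 to 0.135). Without DSS 3 the fold change was -1.63.

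Asl, argininosuccinate lyase, makes arginine from argininosuccinate and was not called with DSS. Its values were 8.59, 8.57 and 8.83 in DSS mice, against 8.62, 8.49 and 8.43 in control mice, a difference of 0.15 (SE 0.10, 95% interval -0.06 to 0.37, adjusted p = 0.438 by limma). The largest difference was between DSS+L-Arg mice (8.70, 8.62 and 8.69) and control+L-Arg mice (8.35, 8.37 and 8.18), which did not overlap and differed by 0.37 (SE 0.10, adjusted p = 0.125).

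Gamt, the second enzyme of creatine synthesis, fell with DSS. It was 7.26, 7.23 and 6.68 in DSS mice, against 7.74, 7.95 and 7.76 in control mice, with no overlap. The log2 fold change was -0.76 (SE 0.18, fold 0.592, adjusted p = 0.0388 by limma). In DSS+L-Arg mice Gamt was 7.27, 7.47 and 7.75, with the lowest 0.01 above the highest DSS mouse and the highest inside the control range, and the difference from DSS of 0.44 did not pass (SE 0.18, adjusted p = 0.315, unadjusted p = 0.0304 by limma). The call in DSS versus control was lost without any of control 1, control 2, control 3, control+L-Arg 3, DSS 2, DSS 3 or DSS+L-Arg 2 (adjusted p = 0.0529 to 0.116).

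Gatm, the first enzyme of that pathway, was not called, and its values fell into a different order. It was 7.76, 7.45 and 7.67 in DSS mice, against 9.64, 7.61 and 8.51 in control mice, and 9.27, 7.56 and 7.33 in DSS+L-Arg mice, against 9.91, 7.85 and 9.24 in control+L-Arg mice. The 5 arrays with posterior Hox medians above the control mean held the 5 highest Gatm values (8.51 to 9.91), and the other 7 had 7.33 to 7.85, whichever group they belonged to. The log2 fold change in DSS versus control was -0.96 (SE 0.63, 95% interval -2.33 to 0.41, adjusted p = 0.445 by limma). With the Hox median as a covariate, added after seeing the data, it was -0.41 (SE 0.29, adjusted p = 0.475), while that of Gamt was -0.88 (SE 0.14, adjusted p = 0.00736) and that of Otc -2.37 (SE 0.49, adjusted p = 0.0213). With the smooth muscle median instead, neither was called (Gamt -0.78, SE 0.22, adjusted p = 0.109, and Otc -1.85, SE 0.60, adjusted p = 0.161).

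Otc and Gamt were the genes called lower with DSS, and the sequence just before each gene start is shown to set their regulatory windows side by side. It is the part of the RefSeq promoter window that lies before the first base of the gene (GRCm38.p6), from a table that matched 5 of the 10 listed genes, with capitals marking the GC box CCGCCC.
Otc, chrX:10252055-10252229, plus strand: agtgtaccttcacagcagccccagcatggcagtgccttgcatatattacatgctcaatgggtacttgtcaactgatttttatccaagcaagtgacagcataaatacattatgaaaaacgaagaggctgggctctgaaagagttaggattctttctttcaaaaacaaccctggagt
Gamt, chr10:80261026-80261262, minus strand: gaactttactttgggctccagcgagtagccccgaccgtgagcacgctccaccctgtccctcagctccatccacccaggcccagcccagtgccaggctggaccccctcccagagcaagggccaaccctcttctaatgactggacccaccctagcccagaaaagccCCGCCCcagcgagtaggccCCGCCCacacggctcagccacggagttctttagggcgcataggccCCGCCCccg
The Gamt window has 66.7% G and C over 237 bases and 3 GC boxes, a motif that 30.9% of all promoter windows of this length hold on either strand. The Otc window has 41.7% G and C over 175 bases and no GC box (20.2% of windows of this length hold one). Neither stretch shown held the TATA box (TATAAA), the CCAAT box (CCAAT), the CDX motif (TTTATNG) or the HNF4 motif (CAAAGNNCA) on either strand. At the length of the Otc window 8.22%, 24.1%, 6.84% and 3.82% of all promoter windows held them, in that order, and at the length of the Gamt window 12.0%, 32.8%, 9.45% and 5.19%. The bases of each promoter window after those shown were not searched, so a TATA box or other motif there would be missed. These motifs were chosen after a search for C/EBP and NF-kB motifs had found no match. The windows were not lined up with the probe sets, whose build was mm9.

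Together, limma called 4 of the 9 genes in DSS versus control, Nos2 and Nos3 higher and Otc and Gamt lower, where 4.03% of all genes tested were called (1.8% higher and 2.23% lower). A further 2, Nos1 and Arg1, had an unadjusted p under 0.05, as did 19.6% of all genes with the called ones included. At the study's thresholds Nos2 and Otc passed (2.13% of all genes). In 6 of the 9 the DSS and control values did not overlap, as in 25.0% of all genes. The median log2 fold change was 0.05 over the 9 genes and -0.01 over all genes, since the 9 moved both ways.
In DSS+L-Arg versus DSS limma called none of the 9, where 0.637% of all genes were called. At an unadjusted p under 0.05 there were 2 by limma (Nos3 and Gamt), where 13.5% of all genes had such a p. SAM gave the same 2 (1938 of 19938 genes) and the unequal-variance test 1 (Nos3, 1156 of 19938 genes). The log2 differences lay between -0.96 for Arg1 and 1.02 for Otc, with a median of 0.01 over the 9 genes and 0.06 over all genes. This comparison uses the same DSS arrays as DSS versus control.
In DSS+L-Arg versus control none of the 9 was called (0.0652% of all genes), with 3 at an unadjusted p under 0.05 by limma (12.6% of all genes). SAM also gave 3 (3043 of 19938 genes) and the unequal-variance test 1 (1986 of 19938 genes). At the study's thresholds Nos2 passed (0.446% of all genes). In DSS+L-Arg versus control+L-Arg none was called either (0.306% of all genes), with 4 at an unadjusted p under 0.05 by limma (15.6% of all genes). SAM also gave 4 (2889 of 19938 genes) and the unequal-variance test 3 (1816 of 19938 genes). Nos2 again passed the study's thresholds (0.727% of all genes).

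**Figure D3:**
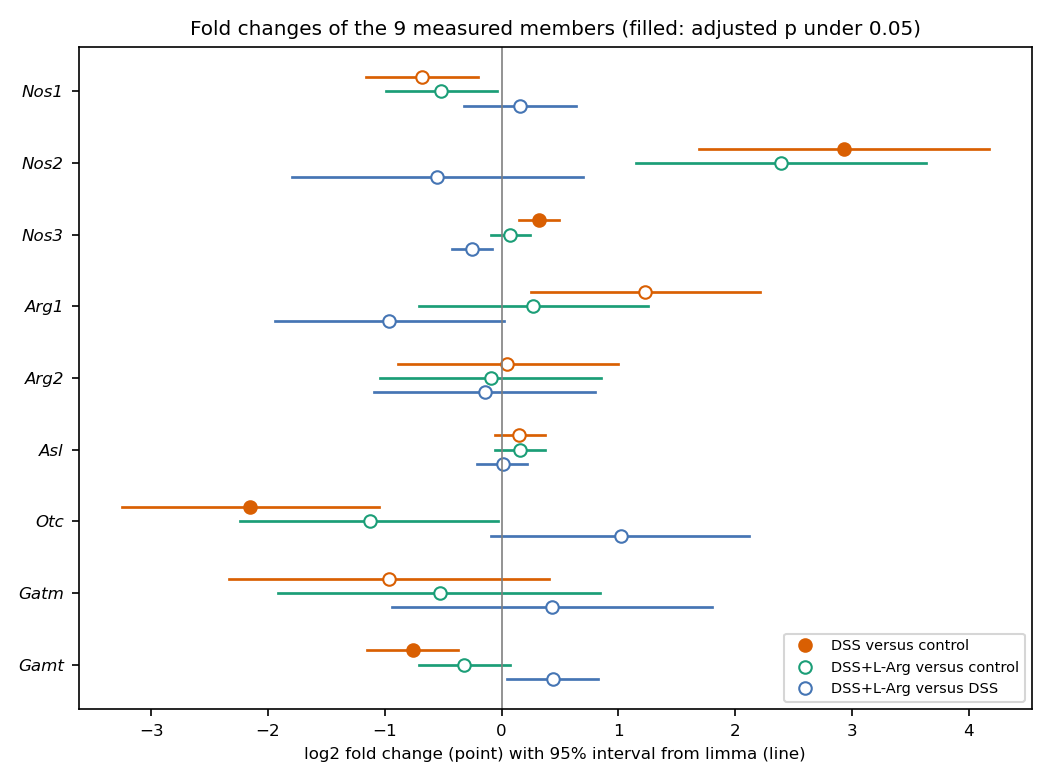
Log2 fold change (x axis) of the 9 measured genes (rows) in DSS versus control, DSS+L-Arg versus control and DSS+L-Arg versus DSS, with 95% intervals from limma as lines (n = 3 per group). Filled points have an adjusted p under 0.05 over all genes. The filled points are Nos2 at 2.93, Nos3 at 0.32, Otc at -2.15 and Gamt at -0.76, all in DSS versus control.

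In mice without DSS, no effect of L-Arg passed the test. None of the 9 was called in control+L-Arg versus control (0% of all genes were), and limma, SAM and the unequal-variance test each gave 0 at an unadjusted p under 0.05. Over all genes such a p was found in 3.44% by limma, 965 of 19938 by SAM and 601 of 19938 by the unequal-variance test. The differences lay between -0.44 for Nos2 and 0.42 for Gatm. Asl was the only one whose groups did not overlap, as in 10.4% of all genes, with 8.35, 8.37 and 8.18 in control+L-Arg mice, against 8.62, 8.49 and 8.43 in control mice (-0.21, SE 0.10, 95% interval -0.43 to 0.00). The effect of L-Arg with DSS minus that without it was not called for any of the 9 (0.0752% of all genes). At an unadjusted p under 0.05 there were 2 by limma (Nos3 and Gamt, 10.8% of all genes) and 1 by the unequal-variance test (Nos3, 1414 of 19938 genes). For Otc this difference of effects was 0.90 (SE 0.71, adjusted p = 0.709 by limma).

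The same mice were at the ends of several of these genes. DSS 3 had the highest Nos2, Arg1 and Asl and the lowest Nos1, Arg2, Otc and Gamt of the 12 arrays, which is 7 of the 9 genes. Within the DSS+L-Arg group, mouse 1 had the highest Nos2, Asl and Gatm and the lowest Nos1, Nos3, Arg1, Arg2, Otc and Gamt. The SD over the 12 arrays was above the median of all genes (0.17) for 8 of the 9 genes, from 0.18 for Asl to 1.68 for Nos2, and for Nos3 it was 0.13.

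For each of these 8 genes, the genes whose signal was most like it over the 12 arrays are given with Pearson's r, which includes the differences between groups and between single arrays. Nos2 was most like Tnfrsf1b (0.954), Eml2 (0.952) and Cers3 (0.950), and Nos1 like Cdh2 (0.979), Tubb4a (0.972) and Ank2 (0.971). Arg1 was most like Adssl1 (0.976), F10 (0.960) and Stx11 (0.959), each over arrays in which DSS 3 alone was far from the rest in Arg1. Otc was most like Myo3a (0.975), Tsc22d1 (0.972) and Gstm1 (0.972). Gamt was most like Reep6 (0.942), Tcea3 (0.940) and H2-Bl (0.937), and Asl like Nelfcd (0.972), Heph (0.966) and Cideb (0.960). Gatm was most like AI854703 (0.967), Ano1 (0.963) and Cyp2c67 (0.962). Arg2 had the lowest best match, with Dnase1l1 (0.920), Hbq1a (0.891) and Kbtbd11 (0.883).

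Cps1, the carbamoyl phosphate synthetase that feeds Otc, had a lower mean with DSS, as Otc did. Among the DSS mice, DSS 1 had the lowest Cps1 but the highest Otc. Cps1 was 5.88, 6.26 and 5.96 in DSS mice, against 8.18, 6.89 and 7.17 in control mice, a log2 fold change of -1.38 (SE 0.29, adjusted p = 0.0247 by limma). In DSS+L-Arg mice it was 7.03, 7.02 and 6.67, above every DSS mouse, and the difference of 0.87 did not pass (SE 0.29, adjusted p = 0.229). Cps1 was the only one of 7 measured genes of carbamoyl phosphate and citrulline supply to be called with DSS (4.03% of all genes were). In DSS+L-Arg versus DSS, where 0.637% of all genes were called, 1 other was called, Glud1, the glutamate dehydrogenase of mitochondria. It measured 10.16, 10.07 and 10.10 in DSS+L-Arg mice, against 10.48, 10.61 and 10.45 in DSS mice (-0.40, SE 0.08, adjusted p = 0.0489). The Glud1 difference between DSS and control was 0.03 (SE 0.08). Glud1 was also called lower in DSS+L-Arg than in control+L-Arg (-0.45, SE 0.08, adjusted p = 0.0466), where 0.306% of all genes were called. The Glud1 call against DSS was lost when any 1 of the 12 arrays was left out (adjusted p = 0.0516 to 0.186). That against control+L-Arg was lost when any array outside the DSS group was left out (0.0516 to 0.191), and that of Cps1 without control 3 (-1.50, adjusted p = 0.0632) or DSS 3 (-1.34, adjusted p = 0.0532).

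Among 11 transporters of arginine and ornithine, none was called with DSS, where 4.03% of all genes were called. An unadjusted p under 0.05 by limma was found for 2 of them, and for 19.6% of all genes. Slc7a1, which encodes the broadly expressed cationic amino acid transporter CAT1, differed by 0.14 (SE 0.14). Slc7a2, which encodes CAT2, was 5.40, 5.67 and 6.26 in DSS mice, against 5.22, 5.28 and 5.07 in control mice (0.58, SE 0.18, adjusted p = 0.0938), and 5.16, 5.11 and 5.08 in DSS+L-Arg mice, with a difference of -0.66 from DSS (SE 0.18, adjusted p = 0.154). Every value of Slc7a2 except that of DSS 3 (6.26) was below the 30th percentile of all values (5.89). Slc7a3, which encodes CAT3, was 5.63, 5.74 and 5.60 in DSS+L-Arg mice, against at most 5.07 in DSS mice. It rose by 0.63 (SE 0.11, adjusted p = 0.0359 by limma), where 0.637% of all genes were called. Every value of Slc7a3 was below the 30th percentile of all values. The call held without DSS 1, control+L-Arg 2 or control+L-Arg 3 and was lost without any other array (adjusted p = 0.0523 to 0.143).

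None of 12 measured enzymes of ornithine, proline and polyamine metabolism was called with DSS (5 at an unadjusted p under 0.05 by limma, as 19.6% of all genes), of 19 listed. Oat, which links ornithine to proline and glutamate, was 10.78, 9.99 and 10.01 in DSS mice, against 10.75, 11.14 and 11.21 in control mice (-0.78, SE 0.21, adjusted p = 0.0578). Odc1, the first enzyme of polyamine synthesis, was 9.86, 8.67 and 10.39 in DSS mice, against 10.03, 10.19 and 10.41 in control mice (-0.57, SE 0.32, adjusted p = 0.36). In DSS+L-Arg versus DSS neither passed (0.28 and 0.11, adjusted p = 0.568 and 0.903). One enzyme of the list, the spermine oxidase Smox, was called between the L-Arg groups with and without DSS: it was 10.48, 10.75 and 10.53 in DSS+L-Arg mice, against 9.70, 10.00 and 9.74 in control+L-Arg mice (0.77, SE 0.13, adjusted p = 0.0381 by limma), where 0.306% of all genes were called. In DSS mice Smox was 10.27, 10.00 and 10.24 and in control mice 10.07, 10.36 and 10.04. The call was lost with the mouse number as a block (0.0594), with the smooth muscle covariate (0.425) and when any array was left out other than a DSS array or control+L-Arg 2 (0.0504 to 0.177).

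**Figure D4:**
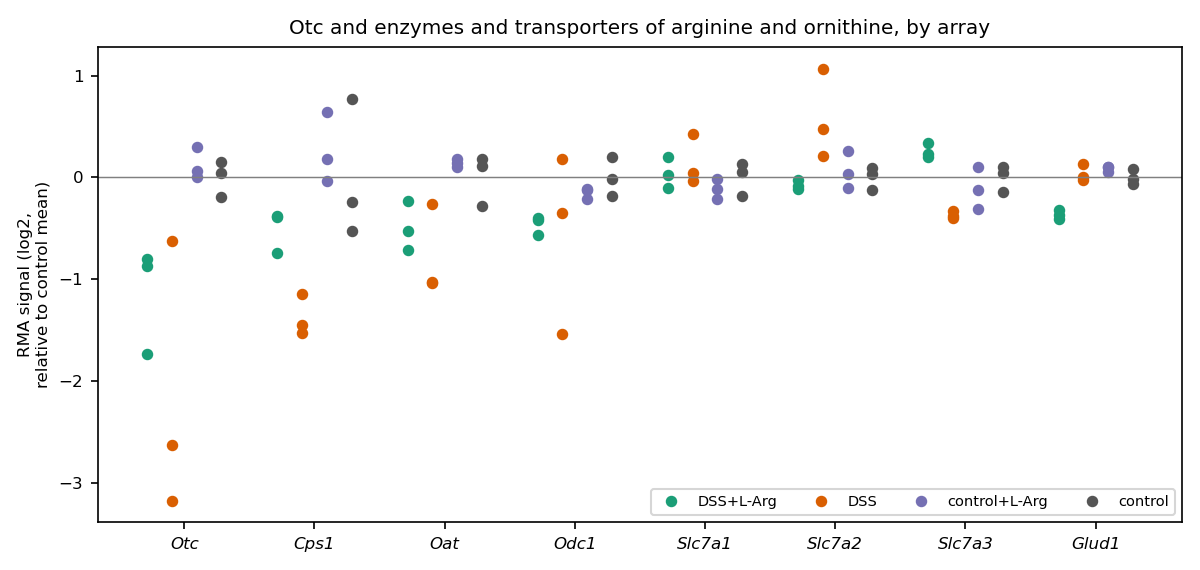
Log2 RMA signal relative to the control mean (y axis) of Otc and 7 genes of arginine and ornithine supply, use and transport (x axis). Each point is 1 mouse, and colours stand for the 4 groups, with DSS+L-Arg at the left and control at the right of each gene. Cps1 lies lowest in the DSS group. The 2 lowest Otc points are DSS 2 and DSS 3, while DSS 1 lies above the 3 DSS+L-Arg points. DSS+L-Arg points of Cps1 lie between the DSS and most control points, and Glud1 is lowest in the DSS+L-Arg group.

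Among the genes around NO itself, no gene was called with DSS in 7 of synthesis of tetrahydrobiopterin, the cofactor of NO synthases (median log2 fold change -0.14, 3 at an unadjusted p under 0.05 by limma), 13 that regulate NO synthases or remove methylarginines (-0.05, 3) and 9 of cyclic GMP signaling (-0.15, 2). The same held for 10 interferon and cytokine signals that act on Nos2 (0.12, 3), though their log2 fold changes ran from -0.22 to 3.1. In DSS+L-Arg versus DSS they ran from -2.52 to 0.54 and none was called. There 4 had an unadjusted p under 0.05 by limma, as did 13.5% of all genes. Of these 10, the transcription factor Irf8 was called between DSS+L-Arg mice (9.66, 9.67 and 9.77) and control+L-Arg mice (8.97, 9.24 and 8.99), which differed by 0.63 (SE 0.11, adjusted p = 0.0498 by limma). That call was lost in a fit of these groups alone (0.0556), with the mouse number as a block (0.0594), with the smooth muscle covariate (0.5) and when any array other than DSS 1, DSS 3 or control+L-Arg 2 was left out (0.0503 to 0.219). All 5 genes of creatine uptake and creatine kinases had a lower mean with DSS (median -0.33) and none had an unadjusted p under 0.05. Over all genes the median was -0.01, 4.03% were called and 19.6% had an unadjusted p under 0.05.

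Among 13 genes of IL-4 and IL-13 signaling and alternative macrophage activation, with which Arg1 is commonly grouped in mouse, 5 were called higher with DSS and none lower (1.8% and 2.23% of all genes). By their means 9 were higher and 4 lower, with a lowest log2 fold change of -1.16. The largest rise was in Chil3, a chitinase-like protein of macrophages and neutrophils, with 6.27, 6.48 and 8.25 in DSS mice, against 4.17, 4.23 and 3.63 in control mice (2.99, SE 0.42, adjusted p = 0.00429 by limma). All its values outside the DSS group were below the 30th percentile of all values (5.89). The mannose receptor Mrc1 rose by 1.34 (SE 0.18, adjusted p = 0.00403), the IL-4 receptor chain Il4ra by 1.20 (SE 0.18, adjusted p = 0.00601) and the scavenger receptor Cd163 by 0.77 (SE 0.12, adjusted p = 0.00618). All Cd163 values outside the DSS group were also below that percentile. With L-Arg after DSS, Chil3 was 4.48, 4.82 and 4.15 and fell by 2.51 relative to DSS (SE 0.42, adjusted p = 0.0303), and Mrc1 fell by 1.33 (SE 0.18, adjusted p = 0.0124). The L-Arg calls were lost for Chil3 without control 1, control 3, control+L-Arg 1 or any DSS+L-Arg array (adjusted p = 0.0515 to 0.152), and for Mrc1 when array 1 (0.0651) or array 3 (0.0889) of the DSS+L-Arg group was left out. Il4ra was 9.66, 9.84 and 9.76 in DSS+L-Arg mice, against 9.73, 10.39 and 10.18 in DSS mice, and did not pass (-0.34, SE 0.18, adjusted p = 0.436).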

How the data were processed

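The authors deposited 1 table of log2 signals per probe set, made with Affymetrix Expression Console 1.1 and RMA per the labels (background correction, quantile normalization and summary of probes, build mm9), for 12 arrays in 4 labelled groups of 3 mice. Quantile normalization hides a change shared by most genes, and the number of arrays limits the precision. Of 35556 probe sets, 21789 carried 1 gene in the platform annotation, 1621 several and 12146 none. The brightest probe set of each of 19938 genes was kept, and 19856 matched the RefSeq gene table used for names.

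One mean per group was fitted to all 12 arrays with limma 3.58.1 in R 4.3.3 (8 residual and 3.37 prior degrees of freedom), and p-values were adjusted by Benjamini-Hochberg over all genes, with calls made under 0.05. Fits were tested on simulated data. Tables were read with pandas 2.3.3 in Python 3.11.15. Named are the 10 listed genes, Slc7a1, Slc7a2, Odc1 and Oat, up to 4 genes per pathway list called in DSS versus control or DSS+L-Arg versus DSS, and the 3 most alike genes. Apoa4, Sis, Aqp8, Smox, Irf8, S100a8, Mpo and Elane were named after their values were seen. The listed genes and all lists were chosen with earlier results of these data known. Marker and pathway lists were summarised as the median of each gene minus its control mean. Alternatives were other fits, scalings, filters, tests and left-out arrays, and covariates were added after seeing the data.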

Additional observations from a re-analysis of the deposited data

Results flagged for a closer look

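Nos3 was the only one of the 9 measured genes whose values in both L-Arg groups lay wholly to 1 side of the mean without L-Arg, and to opposite sides with and without DSS. Every DSS+L-Arg mouse was below the DSS mean and every control+L-Arg mouse above the control mean, with differences of -0.25 and 0.12 on the log2 scale between different mice, neither of which passed its test. Control+L-Arg 1 and control 2 had the same value (5.80). Read the other way, the DSS difference was -0.05 in mice given L-Arg and 0.32 in mice that were not. The interaction was -0.37 (SE 0.11, unadjusted p = 0.00609), and it did not pass over all genes (adjusted p = 0.268 by limma). The values span 0.44 over the 12 arrays, at a dim probe set.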

How the results depend on the processing

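The fold changes of the 4 listed genes called in DSS versus control, and of the other named genes where called, kept their direction in every alternative tried, and the calls did not. Of the 4 calls, 0 were left in a fit of DSS and control alone, by the unequal-variance test, by SAM and with the smooth muscle covariate. The unequal-variance test called no gene at all in this comparison (lowest adjusted p = 0.374). The lowest adjusted p by SAM with 3 arrays against 3 was 0.1, so that it could call nothing. At the study's thresholds 2 calls were left (Nos2 and Otc). Centring the arrays or a further quantile normalization left 3 (without Gamt), array weights or a trended and robust prior 3 (without Otc), and the Hox covariate 3 (without Nos3). The low-value filter and the mean of probe sets left 4. All 9 genes passed that filter, which asks for at least 3 arrays above the 30th percentile. Nos3 passed it in 4 arrays, the 3 DSS arrays and control+L-Arg 3, so its kept call there is no support. Each of the 9 has 1 probe set, so the mean of probe sets changed none of their values. Leaving out 1 array gave 0 to 4 calls: 0 without control 1 or control 3, 1 without control 2, control+L-Arg 3, DSS 2, DSS 3 or DSS+L-Arg 2, 2 without control+L-Arg 1, control+L-Arg 2 or DSS+L-Arg 3, 3 without DSS+L-Arg 1, and 4 without DSS 1 (Arg1 in place of Nos3). The fold changes then lay between 2.31 and 3.40 for Nos2, 0.28 and 0.35 for Nos3, -2.91 and -1.63 for Otc, and -0.86 and -0.57 for Gamt. Leaving out an array of neither compared group kept the fold change and moved only its SE and adjusted p. For Gamt without control+L-Arg 3 these were -0.76, 0.19 and 0.0555 by limma. Fewer arrays leave fewer degrees of freedom, and the cause of each lost call was not tested.

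For DSS+L-Arg versus control, the study's thresholds gave 1 call (Nos2), and leaving out any array 0. Between DSS+L-Arg and control+L-Arg, 1 gene (Nos2) was called in a fit of these groups alone, with array weights and at the study's thresholds, and 0 to 1 with an array left out (1 without DSS 1 or DSS 3). For DSS+L-Arg versus DSS it was 0 to 1 (Otc, without DSS 1). For control+L-Arg versus control and the interaction it was 0 throughout. The mouse numbers are no stated pairing, and same-numbered arrays deviated together in some pairs only (r = -0.355 to 0.477 over 18 pairs, median -0.0248, against 0.011 over 36 differently numbered pairs). With the number as a block, 2 of the 4 calls were left (Nos2 and Gamt), and no other comparison gained one.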
